A study of Homo sapiens with 5 samples.

Results

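The 41 genes described here encode proteins that sense DNA double-strand breaks, repair them by homologous recombination or end joining, remove interstrand crosslinks through the Fanconi anaemia pathway, or signal to the cell cycle through the checkpoint kinases. They were taken as a list, by symbol, from genes present in each of the 3 deposited tables. The rule itself uses no level or difference, but the list was drawn up with earlier results of these data known. They are 41 of the 10976 genes listed in both experiments of the series. The list includes TP53BP1, which encodes 53BP1, a binding partner of the deubiquitinase USP28.

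RNA was sequenced from HLF, an established line of hepatocellular carcinoma cells, in 5 conditions with 1 listed sample each. The knockout experiment held USP28-Ctrl cells (sgCtrl) and USP28-KO cells (sgUsp28), which the study derived by CRISPR from single clones. The reconstitution experiment held USP28-KO cells carrying the lentiviral vector pRRL without USP28 (pRRL-Ctrl), with wildtype USP28 (USP28-WT, pRRL-Usp28-WT), or with monomeric USP28 (USP28-M, pRRL-Usp28-Mono), whose point mutation disrupts the dimer. All cells of the reconstitution experiment therefore carried the knockout guide. The paper describes antibiotic selection after lentiviral transduction, and puromycin selection before the knockout clones were picked. No other treatment is listed for either experiment.

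When both DNA strands break, the MRE11-RAD50-NBN complex binds the ends and activates the kinase ATM, and ubiquitin ligases then mark the surrounding chromatin. 53BP1 and its partners protect such ends and favour end joining, whereas BRCA1 and its partners favour resection of the ends and homologous recombination. Single-stranded DNA at resected ends or stalled forks activates the kinase ATR and, through it, CHEK1. USP28 is known both as a regulator of MYC stability and as a protein that associates with 53BP1.

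The tables give each gene an average log2 CPM (its read count scaled to the size of the library, on a log2 scale) over all libraries of an experiment. For each of 12342 genes the average is identical in the USP28-WT and the USP28-M table, so there are 2 average levels per gene, 1 per experiment. These are means deposited by the authors, and neither a spread over replicates nor a test between conditions can be given with them. The spacing of the lowest averages corresponded to 0.130 CPM per read in the knockout experiment, or about 7690000 reads over all its libraries, with 97.1% of the 1000 lowest genes within 0.1 reads of a step. In the reconstitution experiment it was 0.0328 CPM per read, or about 30500000 reads, with 71.8% of the low genes within 0.1 reads, so this second depth is the less certain. The approximate number of reads per member ran from 97 (RAD52) to 6422 (XRCC5) in the knockout experiment, and from 145 (BRCA2) to 22061 (XRCC5) in the reconstitution experiment. Intervals given here are 95% intervals for the counting of these reads alone. USP28 averaged a log2 CPM of 5.15 in the knockout experiment and 9.79 in the reconstitution experiment, where 2 of the 3 conditions carried a USP28 vector. Of 11 hepatocyte markers, only FGB was listed in the knockout experiment, at 6.003, and only FGB and SERPINA1 in the reconstitution experiment, at 3.20 and 1.88. ALB, APOA1 and HNF4A were listed in neither. Of 8 mesenchymal and epithelial markers 6 were listed in each experiment. VIM stood at 11.71 and 11.69, KRT8 at 11.18 and 12.02, and KRT18 at 10.66 and 11.21. CDH2 stood at 7.72 and 8.06, FN1 at 6.32 and 5.20, and ZEB1 at 4.31 and 3.49, while CDH1 and EPCAM were listed in neither. Of 7 immune, endothelial and fibroblast markers only CD68 (6.86 and 7.73) and COL1A1 (4.47 and 2.84) were listed.

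Most members had a lower average level in the reconstitution experiment than in the knockout experiment. The difference was taken as the average log2 CPM of the reconstitution experiment minus that of the knockout experiment, centred on the median of all genes (-0.12). It was at or below -0.5 (1.41-fold) in 21 of 41 members (51.2%), against 19.6% of all 10976 genes, and at or above 0.5 in 1 member, RNF8, against 14% of all genes. The median centred difference of the members was -0.54. Below 0 lay 31 of the 41 members (75.6%), against 50% of all genes, a share that the centring sets. BRCA2 (-2.47), RIF1 (-2.06), RAD50 (-1.74), NBN (-1.40) and LIG4 (-1.33) were the furthest below. For 17 members the whole counting interval lay below -0.5, and for 8 members it included 0. Counting intervals were computed for the members only, so no share over all genes stands beside these counts. Both experiments were normalised separately and share no listed sample. They also differ in conditions, among them lentiviral transduction and the selection after it, in depth and in fit. These cannot be told apart as sources of a difference.

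**Figure D1:**
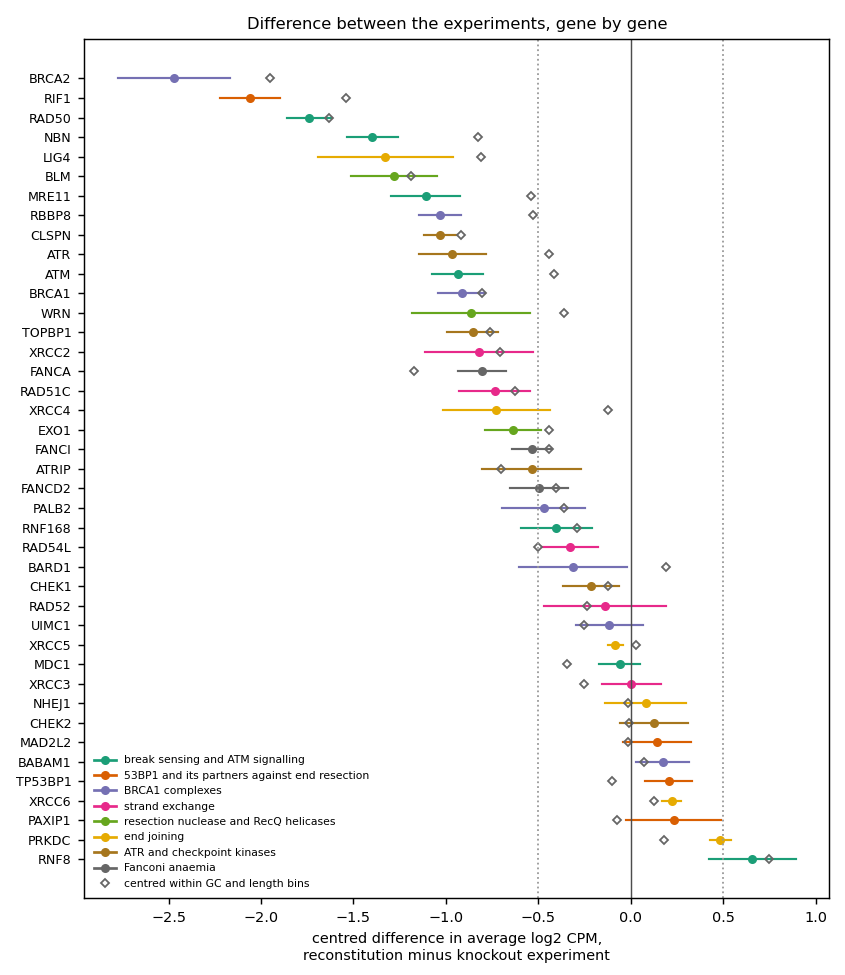
Centred difference in average log2 CPM (horizontal axis, reconstitution minus knockout experiment) for each of the 41 genes, coloured by role, with the 95% counting interval as a line and the value centred within bins of GC content and length as an open diamond. Dotted lines mark -0.5 and 0.5: 21 genes lie at or beyond the left line, from BRCA2 at -2.47 to ATRIP at -0.54, and only RNF8 lies beyond the right line.

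The difference followed the base composition of the transcripts. Over the 10684 genes with an annotated transcript, which share the libraries of both averages, Spearman's rho between the centred difference and the GC content of the longest coding transcript was 0.48 across genes, and over the 41 members it was 0.73. The members were AT-rich, with a median GC content of 43.4% against 47.8% for all genes, and 26 of them fell into the lower 2 of 5 equal bins of GC content. Of the 21 members at or below -0.5, 19 were among these 26. The share of all genes at or below -0.5 was not computed bin by bin. In the lowest bin (GC content up to 40.7%) 11 members had a median centred difference of -1.03, and all genes of that bin had -0.53. The median gene of that bin was thus itself past -0.5. In the second bin (up to 45.2%) 15 members had a median of -0.64, and all genes had -0.14. In the middle bin (up to 51.1%) 8 members had a median of 0.17 and all genes 0.15, and no member there lay at or below -0.5. In the next bin (up to 57.7%) 4 members had a median of -0.19 and all genes 0.22, and 1 member, FANCA, lay at or below -0.5. In the highest bin 3 members had a median of 0.0028 and all genes 0.18, and 1 member, ATRIP, lay at or below -0.5. With the length of the same coding transcript rho was -0.013 over all genes and -0.39 over the members, and with the summed exon length it was 0.010 and -0.27.

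Coding stretches of 4 example members show the range of composition, RIF1 and LIG4 toward the AT-rich end, MAD2L2 and XRCC3 at the GC-rich end. Each is a run of 120 bases in frame, the one whose GC content is nearest to that of its whole transcript, in GENCODE release 29 on GRCh38, written 5′ to 3′ on the strand of the gene with G and C in capitals. The RIF1 stretch lies in coding sequence at chr2:151416563-151416682 on the plus strand, in codons 95 to 134, with a GC content of 37.5%. The LIG4 stretch lies at chr13:108211140-108211259 on the minus strand, in codons 4 to 43, with 35.8%. The MAD2L2 stretch lies in coding exons between 11675685 and 11676118 of chromosome 1 on the minus strand, in codons 119 to 158, with 63.3%. The XRCC3 stretch lies in coding exons between 103707169 and 103708594 of chromosome 14 on the minus strand, in codons 41 to 80, with 62.5%.
RIF1: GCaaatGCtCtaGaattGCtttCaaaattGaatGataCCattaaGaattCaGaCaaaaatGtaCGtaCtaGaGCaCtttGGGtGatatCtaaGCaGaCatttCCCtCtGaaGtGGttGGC
LIG4: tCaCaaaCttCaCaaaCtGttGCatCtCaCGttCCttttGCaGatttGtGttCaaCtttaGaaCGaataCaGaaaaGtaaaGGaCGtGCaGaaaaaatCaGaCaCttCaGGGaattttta
MAD2L2: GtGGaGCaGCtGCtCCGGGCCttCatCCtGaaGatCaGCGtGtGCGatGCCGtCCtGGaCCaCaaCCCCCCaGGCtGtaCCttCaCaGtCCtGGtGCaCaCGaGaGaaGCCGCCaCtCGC
XRCC3: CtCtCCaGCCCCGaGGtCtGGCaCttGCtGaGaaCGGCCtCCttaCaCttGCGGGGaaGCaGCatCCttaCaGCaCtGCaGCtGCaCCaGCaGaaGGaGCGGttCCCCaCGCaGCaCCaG

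RIF1 and LIG4 had centred differences of -2.06 and -1.33, and MAD2L2 and XRCC3 of 0.14 and 0.0028. Not all members followed this contrast, with BARD1 (38.0% GC) at -0.31 and ATRIP (58.7% GC) at -0.54. When each gene was instead centred on the median of genes in the same of 5 by 5 bins of GC content and summed exon length, a choice made after the data had been seen, 16 members (39.0%) lay at or below -0.5, against 13.5% of 10684 genes, and 1 at or above 0.5, against 11.5%. The median of the members was then -0.40. Of the 21 members counted before, 15 were counted again and all 21 stayed below 0. These 21 had been picked for low values, which favours both counts, and the same shares were not computed for all genes. Within the bins BRCA2 stood at -1.95, RAD50 at -1.63, RIF1 at -1.54, BLM at -1.19 and FANCA at -1.17. With these bin-centred values, rho with GC content was 0.036 over all genes but still 0.42 over the 41 members. The bins thus left a trend with composition among the members. The part of composition in the difference was not tested further.

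With other settings, 24 members lay at or below -0.5 without centring (24.8% of all genes), 20 of the 38 members with a level of at least 3 in both experiments did (17.3% of such genes), and 9 lay at or below -1 (6.61% of all genes). In the other direction 1 member passed without centring (9.39%), 1 among genes with a level of at least 3 (13%) and 0 at a difference of 1 (2.41%).

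Apart from medians of undivided levels in the closing section, levels of different genes are compared per length. The measure is the average log2 CPM per kilobase of summed exon. On this scale the members spanned 0.99 (PAXIP1) to 7.26 (XRCC5) in the knockout experiment and -1.37 (BRCA2) to 7.32 (XRCC6) in the reconstitution experiment. Their median was 2.84 and 2.32, respectively, against 3.01 and 2.61 for all genes, and 20 and 17 of the 41 lay above the median of all genes. The undivided levels of the members had a median of 5.68 in the knockout experiment and 5.22 in the reconstitution experiment. With the longest transcript as the length, the order of the members per length had a rho of 0.96 with the order per exon in each experiment. Ratios between genes given below use summed exons and depend on this choice of length.

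**Figure D2:**
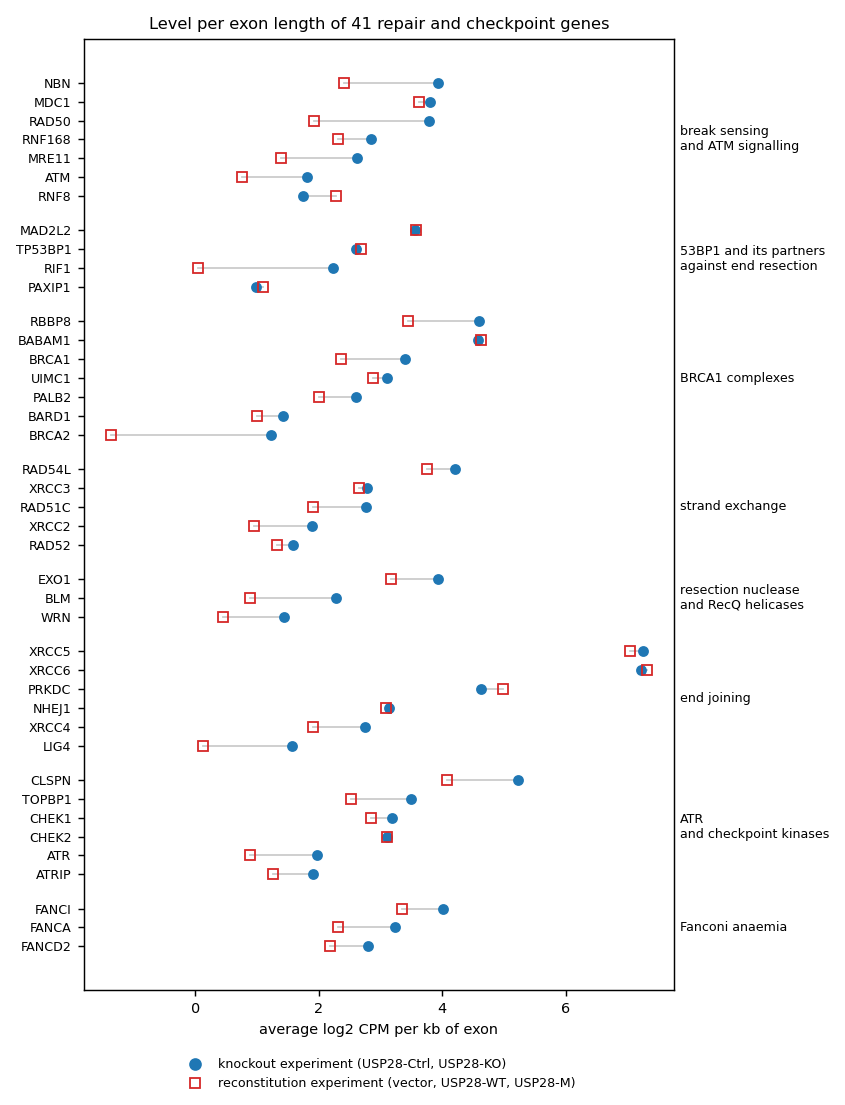
Average log2 CPM per kilobase of summed exon (horizontal axis) for each member, grouped by role, with the knockout experiment as filled circles and the reconstitution experiment as open squares. XRCC5 and XRCC6 stand above 7 in both experiments, apart from all other members, and BRCA2 in the reconstitution experiment is the lowest point.

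End joining held the 2 most abundant members per length, and in LIG4 1 of the rarer ones. XRCC5 and XRCC6 encode Ku80 and Ku70, the ring that threads onto DNA ends. XRCC5 had an average log2 CPM of 9.71 in the knockout and 9.50 in the reconstitution experiment, and XRCC6 of 8.94 and 9.04. Per length XRCC5 was 1.03-fold XRCC6 in the knockout and 0.830-fold in the reconstitution experiment. With the longest transcript as the length these ratios were 1.23 and 0.994. PRKDC, the catalytic subunit of the DNA-dependent protein kinase that Ku recruits, had levels of 8.58 and 8.94, and per length was at 0.166-fold and 0.1997-fold that of XRCC6. Its centred difference was 0.49 (interval 0.43 to 0.54), the second highest of the members. The ligation factors were rarer, with log2 CPM per kilobase in the knockout experiment of 1.57 for LIG4, 2.76 for XRCC4 and 3.14 for NHEJ1, against 7.22 for XRCC6. LIG4, the ligase of this pathway, had levels of 3.70 and 2.25, on about 100 and 145 reads, and a centred difference of -1.33 (interval -1.69 to -0.96), which was -0.81 within the bins. XRCC4, its scaffold, had levels of 4.18 and 3.33 and a difference of -0.73, which was -0.12 within the bins of composition and length. NHEJ1, which encodes XLF, a bridge between DNA ends, had levels of 4.77 and 4.73 and a difference of 0.081, with an interval that included 0. Thus LIG4 and XRCC4 were lower in the reconstitution experiment, while the Ku genes, NHEJ1 and PRKDC stayed within 0.5 of the median gene.

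Among the genes of break sensing, all 3 subunits of the MRE11-RAD50-NBN complex were past -0.5 in the reconstitution experiment (19.6% of all genes were). MRE11, its nuclease, had levels of 5.57 and 4.34 and a centred difference of -1.11. RAD50, its ATPase and tether, had levels of 7.08 and 5.22 and a difference of -1.74 (interval -1.86 to -1.62). NBN, which binds ATM, had levels of 6.55 and 5.03 and a difference of -1.40. Within the bins of composition and length the 3 values were -0.54, -1.63 and -0.83. Per length MRE11 was 0.446-fold RAD50 in the knockout and 0.690-fold in the reconstitution experiment. ATM had levels of 6.40 and 5.34 and a difference of -0.94, but -0.42 within the bins. MDC1, the adaptor that binds phosphorylated H2AX, had levels of 6.81 and 6.63 and a difference of -0.060, with an interval that included 0. The ubiquitin ligases that follow it went apart. RNF8 had levels of 4.47 and 5.00 and a difference of 0.66 (interval 0.42 to 0.89), the highest of all members, on about 170 and 977 reads. RNF168 had levels of 5.26 and 4.74 and a difference of -0.40. Per length RNF8 was 0.470-fold RNF168 in the knockout experiment and 0.979-fold in the reconstitution experiment. With the longest transcript as the length these ratios were 0.548 and 1.14.

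TP53BP1 itself was close between the experiments. Its levels were 6.30 and 6.38, and per length it stood at percentiles 40.9 and 51.1 of the listed genes of each table, on about 605 and 2539 reads. The centred difference was 0.21 (interval 0.078 to 0.33), and -0.10 within the bins. The gene lies at chr15:43403061-43510728 on the minus strand of GRCh38. RIF1, which acts with 53BP1 to restrain resection, had levels of 6.41 and 4.22 and was 4.17-fold lower in the reconstitution experiment after centring. Per length RIF1 lay at percentile 33.0 in the knockout experiment and at percentile 11.0 in the reconstitution experiment. MAD2L2, also called REV7, is the shieldin subunit that follows RIF1, and had levels of 5.29 and 5.31. PAXIP1, which encodes PTIP, another partner of 53BP1, had levels of 4.26 and 4.37. Of this group of 4 genes, RIF1 alone was past -0.5, and the other genes lay between 0.14 and 0.23.

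**Figure D3:**
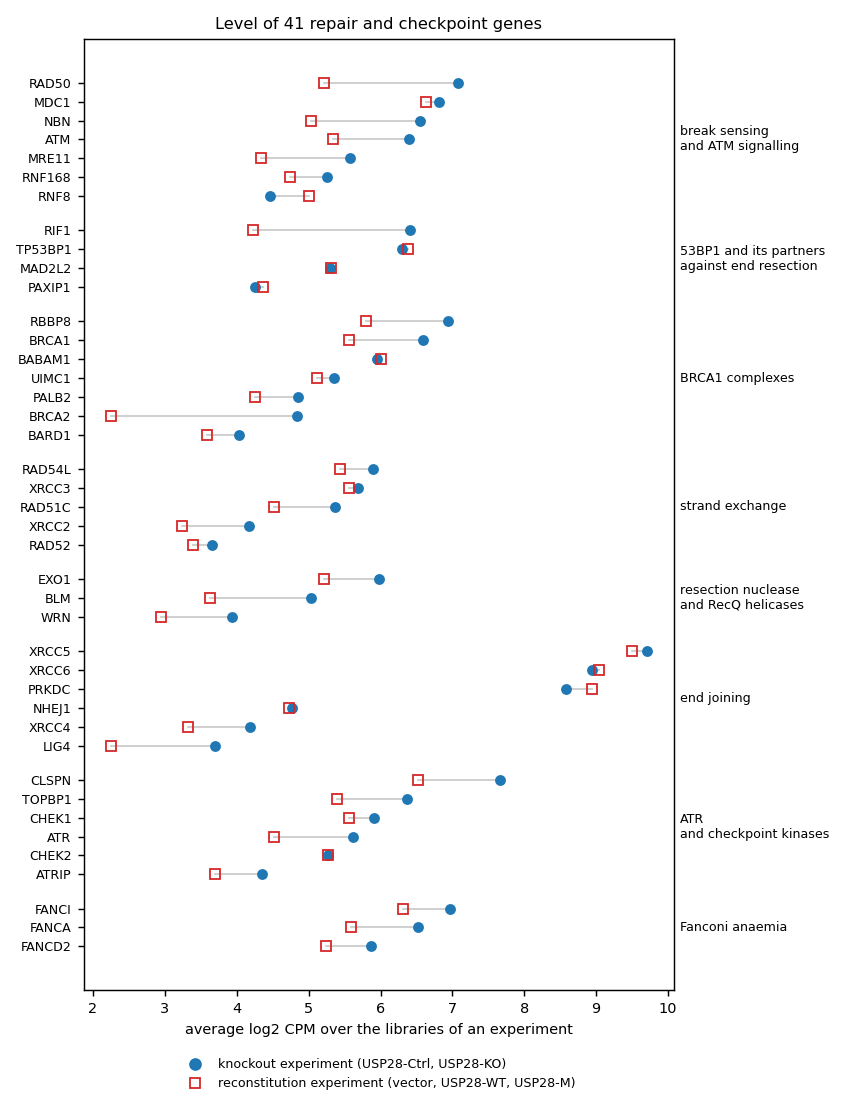
Average log2 CPM (horizontal axis) of each member over the libraries of the knockout experiment (filled circles) and of the reconstitution experiment (open squares), grouped by role. The symbols of TP53BP1, MAD2L2, CHEK2 and BABAM1 nearly coincide, whereas the squares of BRCA2, RIF1 and RAD50 lie to the left of their circles.

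The genes of the BRCA1 complexes differed widely. BRCA1 had levels of 6.60 and 5.56 and a centred difference of -0.91 (interval -1.04 to -0.79). BARD1, its obligate partner in the ubiquitin ligase, had levels of 4.03 and 3.59 and a difference of -0.31, which was 0.19 within the bins. Per length BRCA1 was 3.92-fold BARD1 in the knockout and 2.58-fold in the reconstitution experiment. BRCA2, a mediator of homologous recombination, had levels of 4.84 and 2.25, on about 221 and 145 reads, and was 5.55-fold lower after centring. This difference lay at percentile 0.319 of the differences of all genes. PALB2, the bridge between BRCA1 and BRCA2, had levels of 4.85 and 4.25 and a difference of -0.47. RBBP8 encodes CtIP, which starts resection with MRE11, and had levels of 6.94 and 5.79 and a difference of -1.03, which was -0.53 within the bins. UIMC1 (RAP80) and BABAM1 (MERIT40) belong to the BRCA1-A complex, which binds ubiquitin chains at breaks. UIMC1 had levels of 5.35 and 5.12 and a difference of -0.12, and BABAM1 of 5.96 and 6.01 with 0.17. Other subunits of that complex went apart, with -1.17 for BRCC3, -1.03 for ABRAXAS1 and 0.28 for BABAM2. Within the bins they were at -0.97, -0.45 and 0.19. ABRAXAS1 and BABAM2 were named after their values had been seen.

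Of the 5 genes for strand exchange, 2, XRCC2 and RAD51C, were past -0.5 (19.6% of all genes were). RAD51C, XRCC2 and XRCC3 encode proteins that act in strand exchange during homologous recombination. RAD51C had levels of 5.37 and 4.51 and a difference of -0.74, XRCC2 of 4.18 and 3.24 with -0.82, and XRCC3 of 5.68 and 5.56 with 0.0028. Per length RAD51C was 0.997-fold XRCC3, with which it forms a complex, in the knockout experiment and 0.597-fold in the reconstitution experiment. With the longest transcript as the length these ratios were 1.14 and 0.683. RAD52, an annealing factor, had levels of 3.66 and 3.40, on the fewest reads of any member in the knockout experiment. RAD54L, a motor protein of homologous recombination, had levels of 5.89 and 5.44 and a difference of -0.33, and -0.50 within the bins. EXO1, a resection nuclease, and the RecQ helicases BLM and WRN were all past -0.5, against the same 19.6% of all genes. EXO1 had levels of 5.98 and 5.22, BLM of 5.03 and 3.62, and WRN of 3.93 and 2.94, with differences of -0.64, -1.28 and -0.86. Within the bins BLM kept -1.19, EXO1 had -0.44 and WRN -0.36.

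In the ATR branch 4 of 6 genes were past -0.5 (19.6% of all genes were), and the effector kinases were not. ATR had levels of 5.61 and 4.52 and its partner ATRIP of 4.35 and 3.69, with centred differences of -0.97 and -0.54. Within the bins ATR was at -0.44, no longer past -0.5, and ATRIP at -0.70. Per length ATR was 1.04-fold ATRIP in the knockout and 0.774-fold in the reconstitution experiment. With the longest transcript as the length these ratios were 1.33 and 0.988. TOPBP1, an activator of ATR, had levels of 6.37 and 5.39 and a difference of -0.85, with -0.76 within the bins. CLSPN, the adaptor that brings CHEK1 to ATR, had levels of 7.67 and 6.52. CLSPN had the third highest level per length of the members in the knockout experiment, and its difference was -1.03 (interval -1.12 to -0.94), with -0.92 within the bins. CHEK1 had levels of 5.90 and 5.56 and CHEK2 of 5.27 in each experiment, with differences of -0.22 and 0.13. Within the bins CHEK1 was at -0.12 and CHEK2 at -0.011.

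The 3 Fanconi genes among the members were all below 0, as were 50% of all genes. FANCA, of the core ubiquitin ligase, had levels of 6.52 and 5.60 and a difference of -0.81. Its transcript has 55.4% GC, and within the bins its value was -1.17. FANCD2 and FANCI form the clamp that the ligase modifies, and had levels of 5.86 and 5.24, and of 6.97 and 6.31. Their differences lay at either side of the limit, -0.497 for FANCD2 and -0.537 for FANCI. Within the bins both were short of it, at -0.40 and -0.44. Per length FANCI was 2.32-fold and 2.26-fold FANCD2.

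Other genes of these pathways were taken from a list of 88, of which 80 were listed in the knockout and 85 in the reconstitution experiment. Of the 80 in both, 24 (30%) lay at or below -0.5 and 5 (6.25%) at or above 0.5, with a median of -0.23, against 19.6% and 14% of all genes. Within the bins of GC content and length 21 and 4 did, against 13.5% and 11.5%. The 5 and the 4 higher genes include USP28, which 2 of the 3 reconstitution conditions carried on a vector. Named are the lowest and the highest gene of each group. ABRAXAS1 and BABAM2 above, and CDC25B below, were added after their values had been seen. Of the recombination genes 8 of 16 lay at or below -0.5 and 0 at or above 0.5, from BRIP1 (-1.59), a helicase that binds BRCA1, to SLX4 (0.25), a scaffold for nucleases, and 8 were lower within the bins. Of the genes for shieldin and resection 4 of 8 were lower and 0 higher, from RMI1 (-1.29), a partner of BLM, to TOP3A (0.27), the topoisomerase of the same complex, and 2 of 8 were lower within the bins. The end joining genes were near the shares over all genes, with 2 of 12 lower (16.7%) and 1 higher (8.33%), from POLQ (-1.02), the polymerase of microhomology-mediated joining, to LIG3 (0.54), a DNA ligase, which was at 0.23 within the bins. Within the bins 2 of the 12 end joining genes were lower and 0 higher.

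The checkpoint genes lay near the shares over all genes, with 3 of 16 lower (18.8%) and 2 higher (12.5%) in the reconstitution experiment. Within the bins 4 of 16 were lower and 2 higher, against 13.5% and 11.5% of all genes. ETAA1 (-1.80), another activator of ATR, had the lowest value of the whole list. The 2 higher genes were CDKN1A (1.38), which encodes the inhibitor p21, and CDC25B (0.75), a phosphatase that activates cyclin-dependent kinases. CDKN1A had levels of 4.13 and 5.39, the largest difference above 0 in the list apart from that of USP28. Of the Fanconi genes 5 of 16 were lower and 0 higher, from FANCM (-1.69), which anchors the core complex to DNA, to ERCC1 (0.36), a nuclease subunit, and 4 were lower within the bins. Of the genes of break sensing and chromatin ubiquitin 2 of 12 were lower and 2 higher (16.7% each), from BRCC3 (-1.17), the deubiquitinase of the BRCA1-A complex, to USP28 (4.76). USP28 is thus among the higher genes, and cells of the reconstitution experiment carried it on a vector. Within the bins 1 of the 12 was lower and 2 were higher.

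The promoters of 35 of the 41 members were found by gene ID in the RefSeq table for GRCh38.p14, each a window of 250 bases before to 50 after the start. The E-box CACGTG, the letters that MYC and related factors bind, was present in the window of BRCA2 and RAD50, 2 of 35 (5.71%, both strands searched), against 7.43% of all 27305 windows and 10.7% of the 8828 windows of genes listed in both experiments. Letters of the E2F type (TTTGGCGC, TTTCGCGC, TTTCCCGC or TTTGGCGG on either strand) were present in 7 of 35 (20%), against 3.43% of all windows and 6.15% of those of listed genes. None of these letters contains the E-box. The 7 members were CLSPN, EXO1, FANCD2, RNF168, TOPBP1, XRCC2 and XRCC6. Their centred differences ran from -1.03 (CLSPN) to 0.22 (XRCC6).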

How the data were processed

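RNA sequencing covered 5 conditions of HLF cells with 1 listed sample each. Per the labels the authors used bcl2fastq 2.20, STAR 2.5.4 and edgeR 3.26.8 with the genome build hg19. The read counting tool, the filter on low genes and the number of libraries per condition are not given in the sources used here. The deposited value used is the average log2 CPM per gene, the authors' mean over the libraries of a fit, to which edgeR adds a small prior count. The header of the knockout table is shifted by 1 column, so its average was read from the position it has in the rows. The other columns hold the authors' own comparisons (log2 fold changes, F, p-values and adjusted values) and were not used, so no test between conditions was made and the depth per sample is unknown. The number of columns with values of single samples that could not be placed was 0.

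Tables were joined on NCBI gene IDs. Depth came from the steps between the lowest averages. Exon lengths, transcript GC content and positions came from GENCODE release 29 (97.3% of genes), which is on GRCh38, not the authors' hg19. The search for the step was tried on simulated counts near the depth of the knockout experiment, not at that of the reconstitution experiment. The counts past 0.5 were also tried on simulated counts, without averaging over libraries. All members are named, as are USP28 and the lowest and highest gene of each pathway list. Some pathway genes are not reported here. Members and lists were chosen with earlier results of these data known. The design had provided a count test for files with counts, which does not apply here. Scripts ran in Python 3.11.15 with scipy 1.17.1 for intervals, matplotlib 3.10.9 for figures, and both numpy 2.4.6 and pandas 2.3.3.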

Additional observations from a re-analysis of the deposited data

How the results depend on the processing

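The number of members lower in the reconstitution experiment was 21, and 9 with a difference of at least 1 required, where the number higher went from 1 to 0. Without centring, with a minimum level of 3 and within bins of GC content and length, both numbers stayed within 1.5 times. The median difference of the members was -0.54, -0.66 without centring and -0.40 within the bins. With the longest transcript as the length, the median level per kilobase was 3.73 in the knockout and 2.77 in the reconstitution experiment, since summed exons are never shorter. Not divided by length, the median level of the members minus that of all genes was 0.35 in the knockout experiment and 0.32 in the reconstitution experiment. With genes of a level of at least 3 alone these values were 0.22 and -0.15, so the members stood below the median in the latter. The filter raised the median of all genes to 5.46 and 5.38. No paired analysis was possible because the series lists 1 sample per condition and the tables hold averages only. For the same reason no replicate was left out, and the count models were not run. Counting error limits genes with few reads, and 9 members had fewer than 200 reads in the knockout experiment.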
